A study of Mus musculus with 8 samples.

Results

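The 9 C-type lectin receptors described here are *Mrc1*, *Clec7a*, *Clec4e*, *Clec4d*, *Clec4n*, *Clec5a*, *Clec12a*, *Clec10a* and *Cd209a*. They were chosen by name as innate receptors of myeloid cells, several of them coupled to the kinase SYK, and all 9 were among the 57010 genes counted in single mouse kidney cells. The experiment asked how kidney immune cells differ after ischemia-reperfusion injury (IRI), a stop and return of the blood supply, and under entospletinib, an inhibitor of SYK. All mice were male C57BL/6. The control was untouched kidneys, and the other 6 conditions were left kidneys after unilateral IRI in mice that received vehicle (DMSO) or entospletinib and were examined on day 1, 7 or 14. Injections were intraperitoneal and began before IRI, so these conditions bear on treatment from the onset of injury. Kidneys of 3 mice went into a single pool (1 per condition) that was sorted for live cells and enriched for leukocytes by scatter, so comparisons of conditions have no replicate check and carry no test. Cells of every condition were split over 8 sublibraries, and the SD given with a level is the spread over those 8 portions of the same cells, which is technical error only.

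C-type lectin receptors are membrane proteins that bind sugars, lipids or proteins on microbes and on damaged cells. *Clec7a* encodes dectin-1, which binds β-glucan and carries a tyrosine motif in its own tail that recruits SYK. *Clec4e* (Mincle), *Clec4d* (MCL) and *Clec4n* (dectin-2) signal to SYK through the Fc receptor γ chain (*Fcer1g*), and *Clec5a* (MDL-1) through the adaptor DAP12 (*Tyrobp*). SYK then acts through CARD9, BCL10 and MALT1 on NF-κB. *Clec12a* encodes an inhibitory receptor that dampens responses to dead cells. *Mrc1* (CD206, the mannose receptor), *Clec10a* (MGL1, which binds galactose-type sugars) and *Cd209a* (a mouse relative of DC-SIGN) are mainly endocytic receptors, used to mark tissue macrophages and dendritic cells.

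Of the 9 genes, 6 lie on chromosome 6. On the GENCODE M21 annotation of GRCm38, *Clec4n* (chr6:123229843-123247021, plus strand), *Clec4d* (chr6:123262111-123275265, plus strand) and *Clec4e* (chr6:123281789-123289870, minus strand) follow each other with no other protein-coding gene between them. *Clec4n* and *Clec4d* are 15089 bases apart, and *Clec4d* and *Clec4e* 6523 bases. *Clec12a* (chr6:129342691-129365303, plus strand) and *Clec7a* (chr6:129461591-129472779, minus strand) are 96287 bases apart, with *Clec12b*, *Clec1b*, *Clec9a* and *Clec1a* between them. *Clec5a* is at chr6:40574894-40585821 (minus strand), *Mrc1* at chr2:14229392-14332057 (plus strand), *Cd209a* at chr8:3743397-3748984 (minus strand) and *Clec10a* at chr11:70156197-70170834 (plus strand). *Clec10a* has a near copy in *Mgl2*, and *Cd209a* and *Clec4n* belong to families of similar genes, so how the authors' counting split reads shared between copies is uncertain.

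The 250 bases before the start of 7 members were in the RefSeq promoter table for GRCm38.p6 (8 windows, since *Clec7a* has 2 starts). They are shown for the neighbours *Clec4d* and *Clec4e*, whose levels followed each other most closely over cell clusters, and for *Mrc1*, which was high in other cells. Capitals mark GAGGAA or its reverse complement TTCCTC, a core that myeloid ETS factors such as PU.1 can bind. All are written in the direction of transcription, *Clec4d* from chr6:123261857-123262106 (plus strand), *Clec4e* from chr6:123289872-123290121 (minus strand) and *Mrc1* from chr2:14229164-14229413 (plus strand).
Clec4d: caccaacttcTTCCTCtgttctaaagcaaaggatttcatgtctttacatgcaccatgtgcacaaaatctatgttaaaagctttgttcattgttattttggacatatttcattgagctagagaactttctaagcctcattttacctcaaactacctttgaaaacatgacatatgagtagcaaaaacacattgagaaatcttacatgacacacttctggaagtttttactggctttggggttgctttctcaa
Clec4e: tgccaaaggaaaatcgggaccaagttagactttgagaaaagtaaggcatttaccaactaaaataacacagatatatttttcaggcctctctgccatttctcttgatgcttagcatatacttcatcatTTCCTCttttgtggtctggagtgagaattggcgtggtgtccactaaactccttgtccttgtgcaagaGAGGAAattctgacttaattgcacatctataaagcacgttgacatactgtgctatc
Mrc1: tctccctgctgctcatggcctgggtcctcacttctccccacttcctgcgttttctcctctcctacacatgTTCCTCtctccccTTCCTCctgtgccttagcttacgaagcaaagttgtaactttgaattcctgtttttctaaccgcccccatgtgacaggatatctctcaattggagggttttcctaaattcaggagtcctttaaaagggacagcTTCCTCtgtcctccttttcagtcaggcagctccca

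GAGGAA on either strand was present in 6 of the 7 members' windows (not in that of *Cd209a*), against 23.3% of 32851 promoter windows of the same length. The match lay 240 bases before the start of *Clec4d*, 123 and 56 bases before that of *Clec4e*, and 180, 167 and 35 bases before that of *Mrc1*. TTNCNNAA, the pattern of C/EBP factors, was also searched on both strands and was in 6 of the 7 (not in *Clec7a*) against 36.8% of all windows. The windows of genes with opposite cell distributions thus held the same short patterns. A match describes letters in a window and is not a binding site.

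Of 120281 barcodes, 79389 cells (66.0%) passed the limits on quality and held 238942003 counts, with a median of 2343 per cell. The median ran from 960 counts on entospletinib day 14 to 2930 in the control. Of the cells that passed the other limits, the limit on counts of ribosomal protein genes removed 4.23% to 8.53% in control and vehicle conditions. With entospletinib it removed 29.0%, 12.1% and 24.0% on days 1, 7 and 14. Cells fell into 21 clusters, named as "-like" from marker genes; all listed lectins were left out of the genes used for clustering. Leukocyte-like cells held 96.2% to 98.0% of each member's counts. Cell numbers differed widely, with neutrophil-like cells making up 0.613% of control cells, 38.0%, 29.5% and 11.7% of vehicle cells on days 1, 7 and 14, and 21.8%, 1.75% and 0.444% of entospletinib cells.

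The 9 receptors divided by cell class. *Clec4e*, *Clec4d*, *Clec4n*, *Clec5a* and *Clec7a* had their highest level in neutrophil-like cells. *Mrc1* was highest in macrophage-like cells, *Clec10a* and *Cd209a* in cDC2-like cells (type 2 conventional dendritic cells), and *Clec12a* in plasmacytoid and type 1 dendritic-cell-like cells. Levels are a gene's counts relative to all counts of the class, on the usual CPM scale, over all conditions, so they rest most on the conditions that gave most cells of a class.

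*Clec4d* was at 1387 ± 28.6 CPM (SD, n = 8 sublibraries) in neutrophil-like, 294.1 ± 11.7 in classical monocyte-like, 75.9 ± 8.93 in nonclassical monocyte-like and 31.4 ± 1.60 in macrophage-like cells. *Clec4e* followed the same order at 1394 ± 54.8, 494.6 ± 23.6, 270.3 ± 21.9 and 36.9 ± 3.73 CPM. For both genes the macrophage-like level was within the range of lymphocytes, which should lack them, since *Clec4e* stood at 48.0 CPM in B-cell-like and 32.5 in T-cell-like cells and *Clec4d* at 43.2 and 25.5. With every cell thinned to 500 counts, 45.8% of neutrophil-like cells had a count of *Clec4d*, against 1.17% of macrophage-like and 1.36% of B-cell-like cells. Over all conditions, the macrophage-like level of these neighbours is therefore read as near background, with an excess on day 1 given further on.

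*Clec4n* was at 328.4 ± 16.8 CPM in neutrophil-like, 143.1 ± 10.9 in classical monocyte-like, 63.9 ± 8.68 in cDC2-like, 53.7 ± 4.84 in nonclassical monocyte-like and 46.6 ± 2.79 in macrophage-like cells, the SD ranges of neighbours in that order overlapping from cDC2-like cells on. Unlike its neighbours it was clearly above its 23.4 CPM of T-cell-like cells in macrophage-like cells. *Clec5a* was at 258.1 ± 15.4, 77.0 ± 3.66 and 48.9 ± 2.85 CPM in neutrophil-like, classical monocyte-like and macrophage-like cells. *Clec7a* was spread most evenly, at 535.3 ± 23.1 CPM in neutrophil-like, 353.1 ± 15.3 in cDC2-like, 317.1 ± 18.0 in classical monocyte-like, 263.3 ± 16.3 in nonclassical monocyte-like and 204.6 ± 8.08 in macrophage-like cells. The cDC2-like and classical monocyte-like levels of dectin-1 were neighbours in that order with their SD ranges nearly meeting.

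*Mrc1* reached 851.9 ± 20.1 CPM in macrophage-like cells, 403.5 ± 50.4 in classical monocyte-like and 380.4 ± 21.7 in cDC2-like cells, the latter pair within their spread of each other. It was at 30.2 CPM in neutrophil-like and 40.0 in endothelial-like cells. *Clec10a* was at 175.9 ± 10.8 CPM in cDC2-like cells against 15.8 ± 1.21 in macrophage-like cells, and *Cd209a* at 235.8 ± 13.2 against 5.31. These lectins were used in no cluster name, and the cDC2-like cluster was named from other genes. *Clec12a* was the flattest of the dendritic cell genes, at 128.6 ± 17.9 CPM in plasmacytoid and 103 ± 10.9 in type 1 dendritic-cell-like cells, 81.0 ± 3.89 in macrophage-like and 78.0 ± 3.85 in cDC2-like cells, with 17.1 in neutrophil-like cells.

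**Figure D1:**
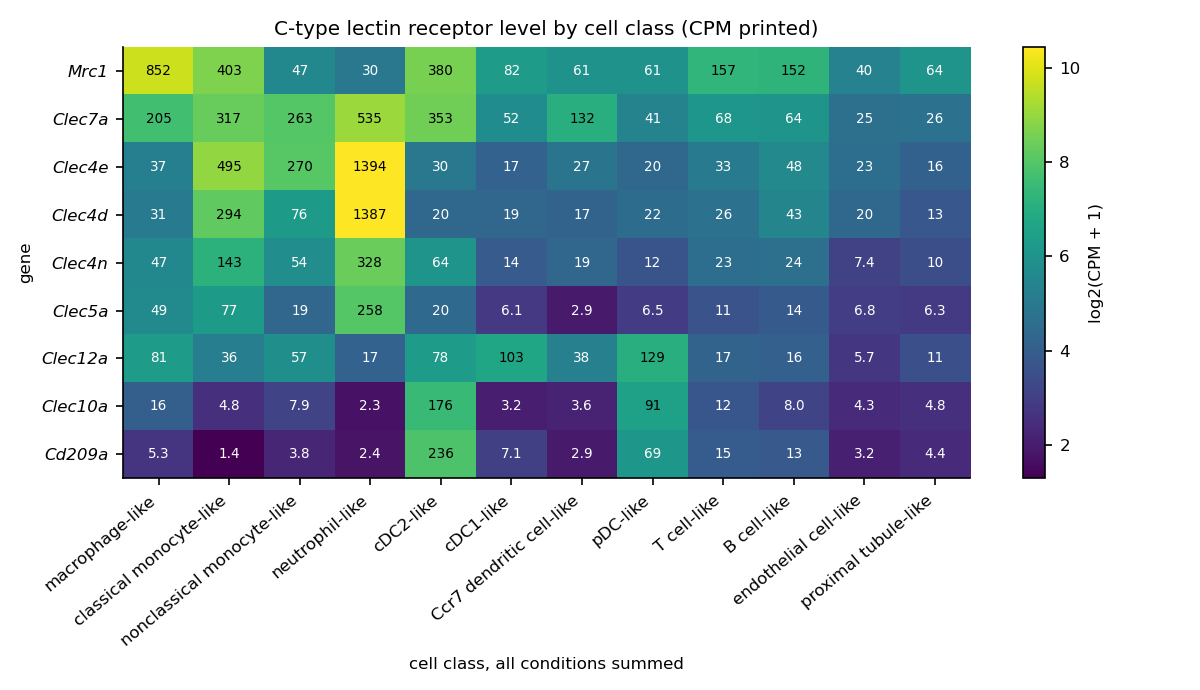
Level of each of the 9 receptors (CPM, colour) in 12 cell classes, counts summed over all conditions. *Clec4d* and *Clec4e* peak in neutrophil-like cells at 1387 and 1394 CPM, *Mrc1* in macrophage-like cells at 851.9 and *Cd209a* in cDC2-like cells at 235.8.

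Counted as shares of each gene's own counts, neutrophil-like cells gave 68.1% of *Clec4d*, 54.7% of *Clec4e*, 44.5% of *Clec5a* and 40.0% of *Clec4n*. Macrophage-like cells gave 69.4% of *Mrc1*, 48.3% of *Clec12a* and 28.2% of *Clec7a*. cDC2-like cells gave 77.7% of *Cd209a* and 60.1% of *Clec10a*. The source of a gene changed with the condition, for example for the mannose receptor. Macrophage-like cells held 80.0% of *Mrc1* counts in the control but 28.0% on vehicle day 1, when classical monocyte-like cells held 60.8%, and 72.3% and 78.4% on vehicle days 7 and 14. Single cells mostly showed few members: after thinning, 20.3% of neutrophil-like cells had a count of none, 38.5% of 1, 29.1% of 2 and 10.4% of 3, whereas 58.3% of macrophage-like cells had none and 35.3% had 1.

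**Figure D2:**
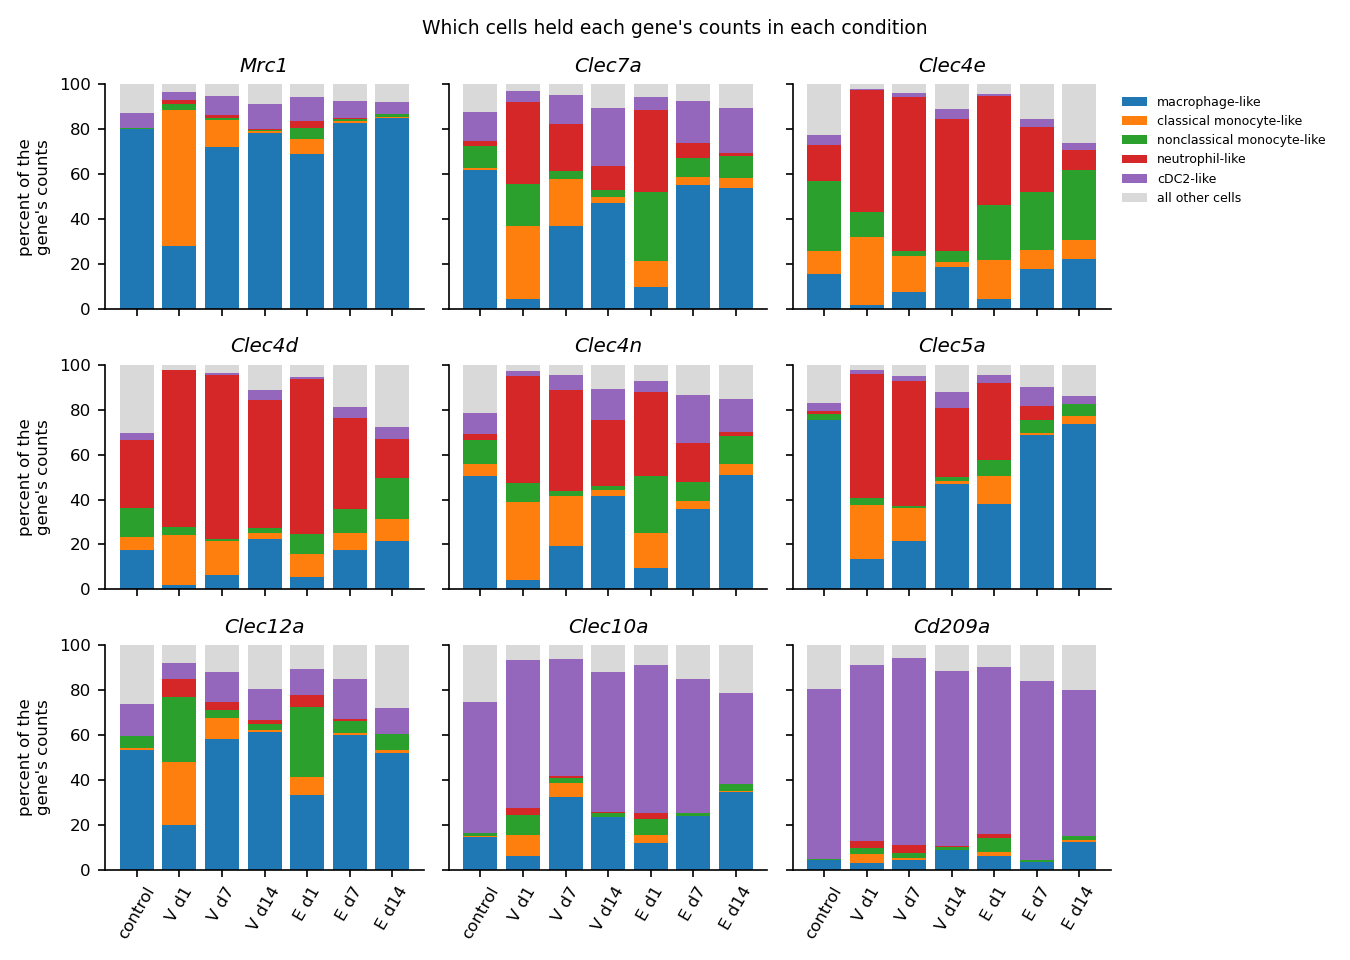
Share of each receptor's counts (percent) that came from each cell class, 1 bar per condition. Classical monocyte-like cells supply 60.8% of *Mrc1* on vehicle day 1, while macrophage-like cells supply 80.0% in the control.

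Across 20 clusters, levels of *Clec4d* and *Clec4e* were the most alike of all member pairs (Pearson r of log2(CPM + 1), 0.971), and the least alike were *Clec4d* and *Clec10a* (-0.22). These correlations are descriptions over clusters that share libraries and sequencing. Of 8800 genes, the 3 most like *Clec4d* were *Trem1* (0.981), *Clec4e* and *Rab44* (0.966), and those most like *Clec4e* were *Trem1* (0.977), *Slc16a3* (0.973) and *Clec4d*. *Clec4n* was followed by *Nlrp3* (0.968), *Thap6* (0.952) and *Il1b* (0.946), and *Clec5a* by *C5ar1* (0.962), *Cd14* (0.961) and *C5ar2* (0.943). *Trem1* encodes another DAP12-coupled receptor of neutrophils and *Nlrp3* the sensor of an inflammasome. For *Clec7a* these were *Lilrb4a* (0.948), *Tlr2* (0.947) and *Gm49339* (0.944), and for *Mrc1* *C3ar1* (0.933), *Siglec1* (0.913) and the complement gene *C1qb* (0.913). *Clec12a* came closest to *Naip6* (0.937), *Rassf4* (0.933) and *Pld4* (0.930). *Clec10a* and *Cd209a* were most like each other (0.878) and then *Ctnnd2* (0.831 and 0.773), followed by ENSMUSG00000120498 (0.821) and *Kmo* (0.759).

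Ratios in the whole suspension are taken relative to the median gene, as defined below. *Clec4d*, *Clec4e*, *Clec4n*, *Clec5a* and *Clec7a* were more than 2-fold higher than control on all 3 vehicle days. With entospletinib they were more than 2-fold lower than with vehicle on all 3 days, except for *Clec5a* on day 1 (-0.80). The CPM of *Clec7a* on day 7 differed by less than 2-fold, so that call rests on the median gene. *Clec4d* was at 9.94 CPM in the control, 410, 247 and 71.4 CPM on vehicle days 1, 7 and 14, and 181, 22.8 and 18.5 CPM on the same days with entospletinib. *Clec7a* was at 92.6 CPM, then 280, 266 and 272, and 130, 138 and 95.8. *Mrc1* was at 226 CPM, then 208, 492 and 727, and 115, 378 and 320. *Clec4d* was thus highest on day 1, *Mrc1* on day 14 and *Clec7a* at a like level on all 3 vehicle days. The makeup of the suspension moved with these levels. Neutrophil-like cells gave 12.3% of all counts on vehicle day 7 and 0.880% on entospletinib day 7, while *Clec4d* within them was at 1468 and 1051 CPM (117 cells in the latter).

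Ratios here and further on are log2 ratios of CPM relative to the median of every gene whose mean over the 7 conditions reached 10 CPM, and a gene is counted as higher or lower from a relative log2 ratio of 1, a 2-fold difference. The 3 vehicle days share the control pool. Against the control, 5, 6 and 7 of the 9 members were higher on vehicle days 1, 7 and 14, where 10.4%, 6.62% and 4.57% of 8926 genes were, and 1, 0 and 0 were lower (12.6%, 9.02% and 9.39% of genes). With entospletinib against vehicle, 4, 5 and 8 members were lower (1.52%, 5.33% and 3.64% of genes) and 0 higher (1.39%, 8.58% and 8.63%). The ratio of *Clec4d* to vehicle was -1.23, -3.83 and -2.10, that of *Clec4n* -1.51, -2.79 and -2.83, that of *Clec7a* -1.15, -1.33 and -1.66 and that of *Mrc1* -0.90, -0.77 and -1.34. *Clec12a* and *Cd209a* were lower past the 2-fold size only on day 14 (-1.44 and -2.25). Leukocyte-like cells were 62.8% of control and 94.3% of vehicle day 14 cells, so the counts were also taken within them. Against control, 5, 5 and 5 members were higher (11.3%, 6.55% and 3.66% of 8121 genes) and 2, 0 and 0 lower (10.3%, 2.59% and 1.35%). Against vehicle, 2, 4 and 6 were lower (1.19%, 5% and 2.48%) and 1, 0 and 0 higher (0.727%, 0.948% and 1.33%), the higher one being *Clec10a* on day 1 (1.03). *Mrc1* was then at -0.69, -0.26 and -0.93 and *Clec7a* at -0.94, -0.83 and -1.27 against vehicle, whereas *Clec4n* was past 2-fold on all 3 days (-1.31, -2.37 and -2.50).

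**Figure D3:**
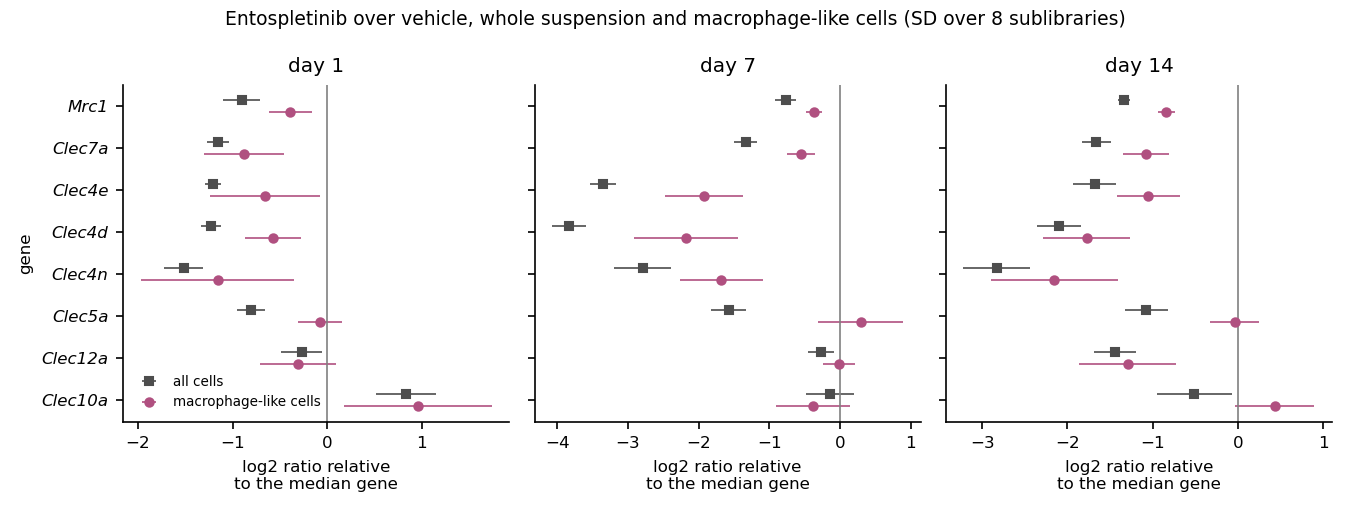
Relative log2 ratio of entospletinib to vehicle on days 1, 7 and 14 for the receptors in all cells and in macrophage-like cells. *Clec4d* on day 7 is at -3.83 in all cells and *Clec4n* on day 14 at -2.83 in all cells and -2.15 in macrophage-like cells.

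Within macrophage-like cells, and leaving aside *Clec4d* and *Clec4e*, *Clec4n* was the member past 2-fold in all 6 comparisons, higher after IRI and lower with entospletinib on all 3 days. Its day 1 ratio to vehicle was under 2-fold without called doublets or without the ribosomal limit. *Mrc1* was higher late after IRI, *Clec5a* early, and *Clec7a* and *Clec12a* were more than 2-fold lower with entospletinib on day 14, for *Clec7a* not once the non-myeloid level was subtracted (-0.73). These cells numbered 3987 in the control, 2122, 1856 and 7673 on vehicle days 1, 7 and 14, and 2395, 2438 and 4102 with entospletinib. They combine 4 clusters whose shares differed between conditions. Cluster 8, led by *Ccl12*, *Plau* and *Mmp12*, held 79.9% of them on vehicle day 1 and 3.43% on vehicle day 14, and cluster 7, led by *Fcrls*, *Apoe* and *Ms4a7*, held 38.6% on vehicle day 14 and 9.48% on entospletinib day 14. No macrophage marker was among the 10 leading genes of cluster 8, and 17.6% of cluster 7 were called doublets.

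*Clec4n* (dectin-2) was at 11.6 ± 2.89 CPM in control macrophage-like cells, 42.77 ± 7.74 on vehicle day 1, 58.3 ± 13.5 on day 7 and 83.85 ± 9.60 on day 14. With entospletinib it was at 18.02 ± 8.36, 22.98 ± 6.75 and 20.46 ± 9.99 CPM. The 3 entospletinib levels lay between the control and every vehicle level, and exact Poisson 95% intervals, which cover counting error only, separated them from vehicle (16.34 to 25.3 CPM against 80.1 to 87.73 on day 14). Relative to the median gene, *Clec4n* was at 1.69 (SD 0.46), 2.60 (0.48) and 2.93 (0.38) on vehicle against control, in the same direction in all 8 sublibraries. Against vehicle it was at -1.16 (0.81) in 7 of 8 sublibraries, -1.68 (0.58) in 8 and -2.15 (0.75) in 8. In non-myeloid cells *Clec4n* also varied, from 2.87 CPM in the control to 31.8 on vehicle day 14 and 4.34 on entospletinib day 14. With that level subtracted the ratios to control were 1.19, 2.23 and 2.66 and the ratios to vehicle -1.48, -1.35 and -1.82. In cells without a count of a neutrophil marker the ratios to vehicle were -1.43, -1.47 and -1.98. Such cells were 33.3%, 51.6% and 52.5% of vehicle macrophage-like cells on days 1, 7 and 14, and 50.3%, 62.8% and 81.3% with entospletinib. A cell with fewer counts passes this selection more readily. Within single clusters on day 14 *Clec4n* was at -1.04, -2.21 and -1.37 (clusters 1, 3 and 7), and on day 7 at -1.1, -0.55 and -1.36. The day 1 ratio was under 2-fold without called doublets (-0.87) and without the ribosomal limit (-0.93).

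Markers of classical monocytes, in which *Clec4n* and *Clec7a* are also found, moved in the same macrophage-like cells. All 9 were detected in every condition, and they summed to 249 CPM in the control, 318, 659 and 679 on vehicle days and 281, 595 and 386 with entospletinib. Markers of cDC2, which include MHC class II genes that macrophages also express, summed to 10136 CPM in the control, 4954, 7095 and 9370 on vehicle days and 5609, 10693 and 9002 with entospletinib, with at most 1 of 12 at 0 in a condition. On vehicle day 1, when that sum was lowest, *Clec7a* and *Clec10a* were below control too. The part of either list in these ratios was not tested.

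*Mrc1* was at 541.8 ± 24.5 CPM in the control, 479.8 ± 23.2, 930.6 ± 74.7 and 1269 ± 39.6 on vehicle days 1, 7 and 14, and 346.1 ± 45.1, 911.6 ± 28.5 and 774.9 ± 46.3 with entospletinib. The vehicle ratio to control was -0.36 (0.11), 1.05 (0.14) and 1.31 (0.06), with all 8 sublibraries in the direction given. On day 14 it was 1.05, 1.32, 1.38 and 1.1 in clusters 1, 3, 7 and 8, so the late difference from control was seen within each cluster. On day 1 it was 0.17 in cluster 8 alone, the reverse of the class. With the non-myeloid level subtracted it was 0.99 on day 7, under 2-fold, and 1.17 on day 14. Ratios to vehicle were -0.39 (0.22), -0.37 (0.11) and -0.84 (0.10), under 2-fold on every day. The CPM on day 7 overlapped between treatments, while those of day 14 did not (Poisson 1254 to 1284 against 748.4 to 802.2 CPM).

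*Clec7a* (dectin-1) was at 172 ± 7.73 CPM in control cells, 106.2 ± 16.7, 257.8 ± 28.4 and 286 ± 23.9 on vehicle days, and 54.41 ± 8.73, 222.3 ± 22.1 and 147.3 ± 28.2 with entospletinib. It was lower than control on day 1 (-0.88, SD 0.26) and higher on days 7 and 14 (0.86 and 0.81), in all 8 sublibraries but under 2-fold. With the non-myeloid level subtracted the day 1 ratio was past 2-fold, at -1.47. Against vehicle it was at -0.88 (0.42), -0.55 (0.19) and -1.08 (0.27), again in all 8. The day 14 ratio was smaller within single clusters, at -0.79, -0.61 and -0.24 in clusters 1, 3 and 7, beside the different cluster shares, and -0.96 in cells with over 500 genes. *Clec12a*, the inhibitory receptor, was at 68.15 CPM in the control, 104.1 ± 8.39 on vehicle day 14 and 46.22 ± 14.3 on entospletinib day 14, a ratio to vehicle of -1.30 (0.57). Its ratio was -0.31 on day 1 and -0.02 on day 7, so the lower level was measured on day 14, where it was -1.40, -1.29 and -0.71 in clusters 1, 3 and 7 and -1.12 with the non-myeloid level subtracted.

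*Clec5a* stood apart, at 33.6 ± 5.45 CPM in the control, 108.4 ± 13.5 on vehicle day 1 and 96.87 ± 10.8 on entospletinib day 1. It was back at 30.95 and 31.58 CPM on vehicle days 7 and 14, and at 47.81 and 33.46 CPM with entospletinib. The day 1 ratio to control was 1.5 (0.28) and that of entospletinib to vehicle -0.08 (0.23), within the technical spread. Cluster 8 held 16.7% of macrophage-like cells in the control and 79.9%, 5.55% and 3.43% on vehicle days 1, 7 and 14. With entospletinib it held 57.0%, 13.9% and 2.05%. The part of these cluster shares in the level of *Clec5a* was not tested. *Clec10a* was low throughout, from 5.848 CPM on vehicle day 1 to 27.68 on entospletinib day 14, and *Cd209a* was under the 10 CPM needed for a ratio.

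*Clec4d* and *Clec4e* had large ratios in macrophage-like cells, at levels near those of non-myeloid cells. *Clec4d* was at 5.206 CPM in control macrophage-like cells, 68.11 on vehicle day 1 and 11.31 on entospletinib day 14. Non-myeloid cells, which should lack it, had 5.38, 51.9 and 10.2 CPM in these conditions. *Clec4e* was at 6.862, 74.08 and 20.94 CPM against 5.90, 60.7 and 16.0. Across conditions the macrophage-like level of *Clec4d* was 0.39% to 4.61% of the neutrophil-like level. On vehicle day 1 it was 4.61% and that of *Clec4e* 5.14%, above each of the 12 neutrophil markers (at most 3.24%, *Trem1*). On entospletinib day 1 the pair was at 3.73% and 4.32%, against at most 2.62% for a marker. On vehicle day 7 the pair was at 2.83% and 3.57%, within the range of the markers (up to 7.32%, *Csf3r*). The 12 neutrophil markers summed to 199 CPM in control macrophage-like cells and 644, 400 and 475 CPM on vehicle days, and to 423, 227 and 241 CPM with entospletinib, with only *Ly6g* at 0 in any condition. In non-myeloid cells the same sum was 112, then 946, 415 and 497, then 708, 190 and 179 CPM. Macrophage-like cells exceeded non-myeloid cells by 16.2 CPM of *Clec4d* and 13.4 of *Clec4e* on vehicle day 1 and by 10.6 and 3.00 on day 14, and were below them on day 7. The source of the day 1 excess was not tested, and the ratios of the pair in these cells are not read as a difference between macrophages.

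Over the 8 members assessed in macrophage-like cells, 4, 5 and 4 were higher than control on vehicle days 1, 7 and 14, where 7.01%, 3.4% and 3.71% of 8061 genes were, and 1, 0 and 0 were lower (6.91%, 1.2% and 1.41%). Those counts include *Clec4d* and *Clec4e*. The lower member was *Clec10a* (10.33 CPM in the control and 5.848 on vehicle day 1), whose ratio was -0.18 with the non-myeloid level subtracted and 0.30 with cells thinned, so that call was not kept. The other higher members were *Clec4n* and *Clec5a* on day 1, *Clec4n*, *Mrc1* and *Clec10a* on day 7, and *Clec4n* and *Mrc1* on day 14. Entospletinib against vehicle gave 1, 3 and 5 lower members (0.409%, 1.92% and 1.86% of genes) and 0 higher (0.323%, 0.261% and 0.918%). Without the pair read as near background, *Clec4n* was the member past 2-fold on days 1 and 7, joined on day 14 by *Clec7a* and *Clec12a*. With the non-myeloid level subtracted *Clec10a* was higher than vehicle on days 1 and 14 (1.02 and 1.67), and *Clec5a* was at 0.93 on day 7. The median relative ratio to vehicle of the 8 members, *Clec4d* and *Clec4e* included, was -0.48, -0.47 and -1.07. The median over all genes is 0 by the way these ratios are defined.

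**Figure D4:**
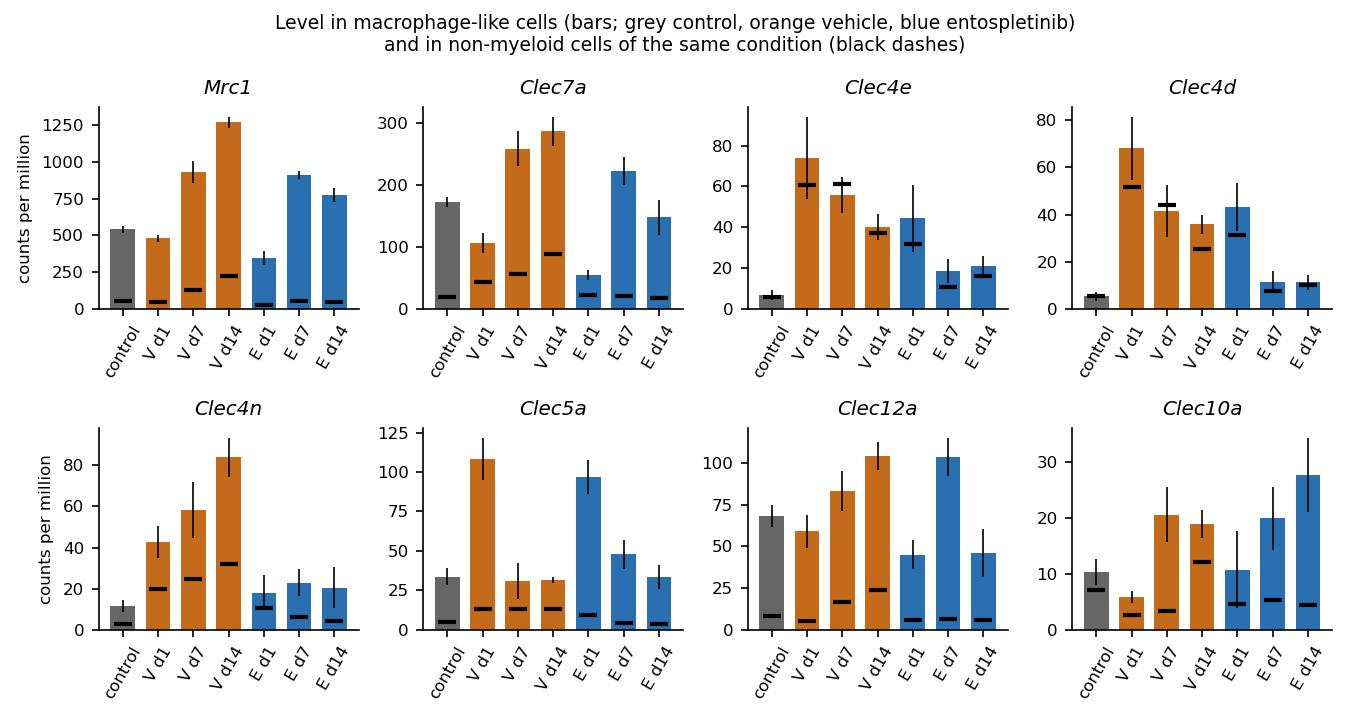
Level (CPM) of 8 receptors in macrophage-like cells of the 7 conditions, with the SD over 8 sublibraries; dashes mark the level in non-myeloid cells of the same condition, V is vehicle, E entospletinib and d the day. *Clec4n* reaches 83.85 on vehicle day 14 and 20.46 on entospletinib day 14, while bars of *Clec4d* and *Clec4e* end near their dashes.

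**Figure D5:**
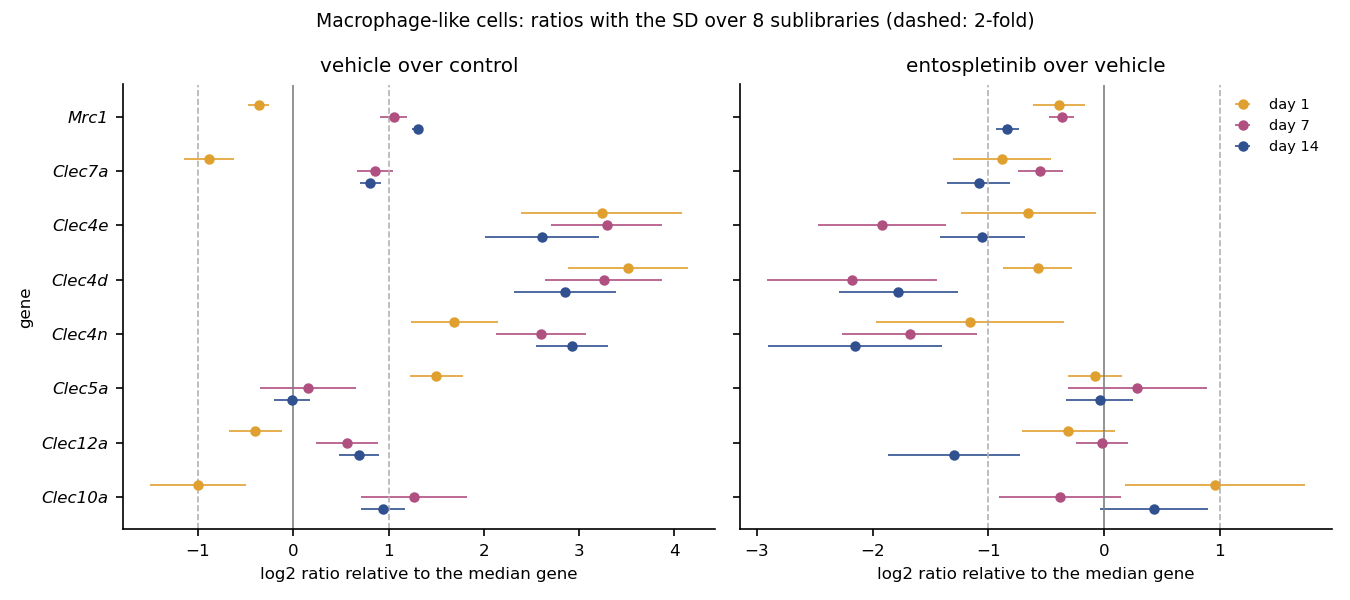
Log2 ratios relative to the median gene in macrophage-like cells, vehicle against control and entospletinib against vehicle on 3 days, with the SD over 8 sublibraries. *Mrc1* is at 1.31 for vehicle against control on day 14 and -0.84 for entospletinib against vehicle.

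Among classical monocyte-like cells, 3760 with vehicle and 503 with entospletinib on day 1 allowed a comparison. *Mrc1* was at 430.7 ± 55.0 CPM with vehicle and 97.95 ± 42.5 with entospletinib, a ratio of -1.97 (SD 0.53) in all 8 sublibraries. It was the 1 of 7 assessed members past 2-fold, where 0.586% of 7163 genes were lower and 0.447% higher. *Clec7a* was at -0.56 (0.30) in 8 sublibraries, *Clec4n* at -0.58 (0.40) in 7, and *Clec4e* at 0.04 and *Clec12a* at 0.01. Summed macrophage markers were 1974 CPM with vehicle and 1642 CPM with entospletinib in these cells, and their part in the *Mrc1* ratio was not tested. Doublets made up 12.9% of the cluster, and without called doublets the *Mrc1* ratio was -2.04.

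Neutrophil-like cells could be compared on day 1 (7826 with vehicle, 2177 with entospletinib). *Clec4n* was at 296.6 ± 14.5 and 151.7 ± 23.7 CPM, a ratio of -0.93 (0.25), *Clec5a* at -0.57 (0.18) and *Clec4e* at -0.46 (0.08). *Clec4d* was at 1477 ± 33.8 and 1157 ± 85.4 CPM (-0.32, SD 0.11) and *Clec7a* at -0.24 (0.16). All 5 were lower in all 8 sublibraries, yet 0 of 7 assessed members passed 2-fold, where 2.04% of 6327 genes were lower and 2.28% higher. With vehicle, neutrophil-like *Clec4n* was at 296.6, 429.4 and 663.8 CPM on days 1, 7 and 14, whereas *Clec4d* was at 1477, 1468 and 1007. These cells combine clusters 0 and 10, and cluster 10 held 3037 of 7826 cells on vehicle day 1, 1174 of 2177 on entospletinib day 1, and 37 of 1713 and 61 of 1934 on vehicle days 7 and 14. Within cluster 0, *Clec4n* was at 407.3 ± 19.0, 435.3 ± 49.4 and 682.2 ± 87.8 CPM on vehicle days, so days 1 and 7 were within their spread. Against vehicle on day 1 it was at -0.73 in cluster 0 and -0.61 in cluster 10, in all 8 sublibraries of each, and *Clec4e* at -0.52 and -0.12. The 12 neutrophil markers summed to 31065 CPM with vehicle and 36821 CPM with entospletinib on that day, with 7 higher (*S100a8* at 1946 and 4102 CPM) and 5 lower (*Hdc* at 5364 and 4402 CPM), and their part in these ratios was not tested. Classical monocyte markers summed to 1798 and 2620 CPM with vehicle and entospletinib on day 1, and cDC2 markers to 460 and 744. On vehicle days 7 and 14 neutrophil markers summed to 13398 and 16383 CPM. Macrophage markers summed to 488, 569 and 838 CPM on vehicle days 1, 7 and 14, and cDC2 markers to 460, 546 and 1110. The part of these lists in the levels of *Clec4n* was not tested. The control, at 65 neutrophil-like cells, was too small for a ratio.

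cDC2-like cells, 348 to 1895 per condition, shared the higher *Clec4n* after IRI. It was at 11.58 CPM in the control and 70.97, 79.16 and 80.05 on vehicle days, ratios of 2.45, 2.99 and 2.85 in all 8 sublibraries, and at 40.89, 58.26 and 42.2 CPM with entospletinib. Neutrophil markers in cDC2-like cells summed to 612 CPM in the control, 2077, 1074 and 1026 on vehicle days and 918, 1203 and 907 with entospletinib, with at most 1 of 12 at 0, and classical monocyte markers to 618, then 1199, 915 and 892, then 902, 1004 and 846 CPM, with at most 2 of 9 at 0. *Il1r2* gave most of the neutrophil sum, at 524 CPM in the control, 1746, 916 and 846 on vehicle days and 638, 1098 and 765 with entospletinib. On day 7 *Il1r2*, *Csf3r* and *Hdc* were higher with entospletinib and the other detected neutrophil markers lower (*Acod1* at 34.1 and 9.43 CPM). The part of both lists in the ratios of *Clec4n* and *Clec7a* was not tested. Control cells had *Clec7a* at 191.3 CPM, vehicle days at 359.1, 344.4 and 447.7 and entospletinib days at 137, 310.7 and 381.5. Its ratio to vehicle was -1.27 (0.66) on day 1 and -0.43 and -0.36 later, so the low dectin-1 of day 1 was not kept past 2-fold. Of the genes that mark these cells, *Cd209a* stood at 307 CPM in control cells and at 168.1, 164.8 and 271.2 CPM on vehicle days (-1.01 on day 1, in 8 sublibraries), with 152.1, 261.9 and 165.4 on entospletinib days. *Clec10a* stayed under 2-fold in all 6 comparisons. Of 9 assessed members, 4, 5 and 5 were higher than control (5.09%, 4.85% and 4.05% of 7657 genes) and 1, 0 and 0 lower (5.86%, 2.87% and 1.89%), and 1 on each day was lower than vehicle (1.24%, 2.31% and 2.6%) with 0 higher (1.79%, 1.7% and 2.42%). The lower member was *Clec7a* on day 1, *Clec4e* on day 7 and *Clec4n* on day 14 (-1.03, in 8 sublibraries). *Clec4d* and *Clec4e*, at 21.4 to 52.7 CPM in vehicle cDC2-like cells, were below the non-myeloid level of the same day. Those counts include them.

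Nonclassical monocyte-like cells showed smaller differences. *Clec7a* was at -0.53 (SD 0.22), -0.41 and -0.61 against vehicle, the first in all 8 sublibraries. *Clec4e* was at 157.9 CPM in the control and 313.5 CPM on vehicle day 1, a ratio of 0.79 in 8 sublibraries. Classical monocyte markers in these cells summed to 2378 CPM in the control, 4233 on vehicle day 1 and 3062 on entospletinib day 1, and cDC2 markers to 3012, 2900 and 2073 CPM. With vehicle and entospletinib, cDC2 markers summed to 2349 and 2410 CPM on day 7 and to 3897 and 2225 on day 14. Classical monocyte markers summed to 2977 and 3323 CPM on day 7 and to 2453 and 2512 on day 14. The part of both lists in these ratios was not tested. *Mrc1* was higher than control on days 7 and 14 (1.74 and 1.71, in 8 sublibraries), at 151.3 and 162.9 CPM with 127 and 224 CPM in non-myeloid cells of the same conditions, and is read as background there. Of 8 assessed members, 0, 2 and 1 were higher than control (2.37%, 4.32% and 2.36% of 7286 genes) and 1, 0 and 0 lower (2.55%, 3.54% and 1.87%). Against vehicle 0, 1 and 1 were lower (0.0549%, 3.53% and 4.06%) and 0 higher (0.22%, 3.47% and 4.23%), the lower ones being *Clec10a* on day 7 and *Mrc1* on day 14. Those counts include *Mrc1*, although its level in these cells is read as background, and it was the 1 member higher than control on day 14.

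The adaptors and the SYK–CARD9 pathway were also counted in macrophage-like cells. For this and the following lists, the shares of all 8061 genes were 7.01%, 3.4% and 3.71% higher and 6.91%, 1.2% and 1.41% lower than control on days 1, 7 and 14, and 0.323%, 0.261% and 0.918% higher and 0.409%, 1.92% and 1.86% lower than vehicle. Of 24 listed genes 23 were assessed, and 0, 1 and 1 were higher than control on days 1, 7 and 14, the 1 being *Malt1* (1.26 and 1.01). Against vehicle 0, 0 and 1 were lower, the 1 on day 14 being *Rel*, an NF-κB subunit (-1.02, in all 8 sublibraries). Single genes of 23 are near those shares. *Syk* itself, the drug's target, was at -0.06, -0.35 and -0.37 against vehicle and at -0.59, 0.18 and 0.30 against control. The highest levels in the list were those of the kinase *Lyn* (1510 CPM) and the phosphatase *Inpp5d* (981 CPM). *Fcer1g* was at 0.50, 0.31 and 0.64 and *Tyrobp* at -0.20, 0.09 and 0.19 against vehicle, none past 2-fold. The list's median was 0, -0.13 and -0.11 against vehicle.

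Of 37 other C-type lectins, 11 were assessed in macrophage-like cells. Against control 2, 1 and 1 were higher and 5, 1 and 1 lower, and against vehicle 1, 0 and 1 were higher and 1, 1 and 0 lower. *Clec9a*, a dendritic cell receptor for dead cells, was the gene past 2-fold on day 14 (1.09, in all 8 sublibraries), and the highest levels were those of *Mgl2* (218 CPM) and *Clec2d* (106 CPM). Chosen after their values were seen, *Olr1*, the receptor for oxidised LDL, was at 1.86, 3.05 and 2.67 against control and -0.61, -2.46 and -0.56 against vehicle, and *Clec4a1* at -1.39 against control and 1.04 against vehicle on day 1. The vehicle pools are shared by both kinds of comparison. Of 6 proposed ligands 5 were assessed, with 3, 2 and 2 higher than control. *Vim*, a filament protein proposed as a ligand of dectin-1, was at 1.64, 1.93 and 1.60, and *Anxa1* at 1.07, 1.74 and 1.72. Against vehicle, *Vim* was lower on day 7 (-1.01, in all 8 sublibraries), and *Anxa5* had the highest level of the list (136 CPM).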

How the data were processed

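Cells were labelled by combinatorial barcoding (Parse Evercode). The authors aligned reads to mm10 (named in the submitters' processing notes) with the Parse pipeline and deposited raw counts of transcripts as whole numbers, one for each gene in each cell. The annotation release is not given in the sources used here. The deposited table of cells gave the condition; sublibraries (8) were not matched to single deposited samples. Of the barcodes, 28653 share a well combination with a barcode of another sublibrary.

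Cells were kept with over 300 genes, under 20000 counts, under 25% mitochondrial and under 1.5% ribosomal protein gene counts, as the methods give these limits, which left 79389 cells, or 90855 without the ribosomal limit. The study states a number of cells between these and close to the larger, so fewer cells were kept here than in the study. Its ribosomal genes, which its methods do not list, may differ from the 426 with names in Rps or Rpl used here. Values without that limit are among the alternatives. Counts scaled to 100000 per cell gave 4000 variable genes without any listed lectin, 40 principal components, 15 neighbours and Leiden clusters (resolution 1). A cluster took a class name from at least 3 of its markers among its 100 leading genes. Doublets (score over 0.5 among 30 neighbours; 7.72% of cells) were kept. Summed counts per class and condition were expressed as CPM with exact Poisson 95% intervals, and 0.5 counts were added for ratios per sublibrary. Ratios were taken in classes with at least 200 cells in both conditions. With 1 pool per condition no p-value was made. A test of treatment over the 3 same-day pairs of pools was not run. In simulated data, ratios of 4-fold and above were recovered by the 2-fold size rule, and 2-fold ones in part.

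All 9 members were named, with, of each other list, up to 5 genes past 2-fold on day 14 against vehicle in all 8 sublibraries, the genes of highest level, and the 3 genes most like each member. Genes outside this rule (*Malt1*, *Vim*, *Anxa1*, *Olr1*, *Clec4a1*, *Syk*, *Fcer1g* and *Tyrobp* in the lists) were named after their values were seen. Members and lists were chosen with earlier results of these data known. Alternatives were other limits on cells and genes, doublets removed, TMM scaling, thinning, classes gated per cell, single clusters and each sublibrary left out; for the whole suspension, leukocyte-like cells as the denominator. Python 3.11.15, scanpy 1.11.5, leidenalg 0.10.2, scipy 1.17.1 and edgeR 4.0.16 (TMM) were used.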

Additional observations from a re-analysis of the deposited data

Results flagged for a closer look

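Of 217 sets of 8 sublibrary values, 20 had a sublibrary far from the others, where chance gives about 1 in 20. In macrophage-like cells these were *Mrc1* at a highest of 450 CPM on entospletinib day 1 and 1101 on vehicle day 7 and a lowest of 1183 on vehicle day 14, and *Clec10a* at a lowest of 13.6 on entospletinib day 14. In cDC2-like cells they were the highest values of *Clec12a* in the control (122 CPM) and on entospletinib day 7 (186) and day 14 (169), of *Mrc1* on entospletinib day 14 (691) and of *Clec7a* on vehicle day 1 (554). In classical monocyte-like cells they were the highest values of *Clec5a* (141 CPM) and *Mrc1* (188) on entospletinib day 1 and *Clec4e* on vehicle day 1 (589.5), and the lowest of *Clec7a* on vehicle day 7 (250.4). In neutrophil-like cells they were *Clec5a* (lowest, 174 CPM) and *Clec7a* (highest, 953) on vehicle day 14 and *Clec4n* (lowest, 329) on vehicle day 7. In nonclassical monocyte-like cells they were *Clec4n* on entospletinib day 14 (highest, 115 CPM), *Clec4d* on entospletinib day 7 (highest, 142), *Clec4e* on vehicle day 1 (lowest, 228) and *Clec7a* on vehicle day 7 (highest, 462).

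For 2 members, all sublibraries of macrophage-like and of cDC2-like cells went opposite ways against the same control. *Clec10a* on vehicle day 7 was at 1.26 in macrophage-like and -0.56 in cDC2-like cells, a difference of 1.83 in log2 ratio. *Clec7a* on vehicle day 1 was at 0.77 in cDC2-like and -0.88 in macrophage-like cells, a difference of 1.65. These differences were not tested, since each condition was 1 pool.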

How the results depend on the processing

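Of 978 member ratios in macrophage-like cells recomputed under alternatives, 854 moved by less than the sublibrary SD, 120 by more, and 4 that were past 2-fold changed sign. A further 31 under 2-fold had the opposite sign, mostly *Clec5a* and *Clec12a* ratios. *Clec10a* on vehicle day 1 was 0.30 with cells thinned, and *Clec4e* against vehicle on day 14 was 0.41 in cluster 1, 0.22 in cluster 3 and 0.61 with the non-myeloid level subtracted. Of 440 ratios in other classes and all cells, 75 moved by more, and none past 2-fold changed sign, against 35 under 2-fold. With classes gated per cell, 80 levels and ratios moved by more than the sublibrary SD and 122 did not. Gating kept 48.1% of macrophage-like, 52.6% of nonclassical monocyte-like, 74.7% of cDC2-like, 80.5% of classical monocyte-like and 90.3% of neutrophil-like cells in their class. Of the gated cells, 95.4%, 64.5%, 34.0%, 54.5% and 98.9% in that order were in the clustered class.

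Members higher than control numbered 1 on each day with genes of at least 50 CPM, which leaves fewer genes, and on day 7 numbered 3 in cluster 1 and 2 with the non-myeloid level subtracted. On day 14 they numbered 6 with cells thinned, 5 of 9 with no filter beyond 1 count in each condition, and 3 in cluster 1 or cluster 8. Members lower than vehicle on day 1 numbered 0 without doublets, without the ribosomal limit or at 50 CPM, and 3 with cells gated singly. On day 7 they numbered 0 at 50 CPM and 1 in cluster 3 or with the level subtracted. On day 14 they numbered 3 with over 500 genes per cell, in cluster 1, in cells with no neutrophil marker or with the level subtracted, 2 at 50 CPM or in cluster 3, and 1 in cluster 7. Members below the median gene on all 3 days were 6, or 3 at 50 CPM or with the level subtracted, and 6 with day 14 left out. The same share over all genes is not given, so these counts are not read as a result about the members. Leaving out each sublibrary gave 4 to 5 members lower on day 14. The cause was not tested. The alternatives of the subtracted level, of cells with no neutrophil marker and of day 14 left out were chosen after seeing the data. TMM scaling kept the counts of members higher than control and of members lower than vehicle on each day. Counts in the opposite directions were not recomputed under the alternatives. A paired test of treatment over the 3 days was not run. With leukocyte-like cells as the denominator in place of all cells, 42 of 54 ratios moved by more than the sublibrary SD.

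With 1 pool per condition, differences between mice and between conditions cannot be told apart. Cells of the entospletinib pool were shallower on day 14 (866 counts per macrophage-like cell against 2510 with vehicle), which limits low genes such as *Clec10a*. The unequal loss of cells at the ribosomal limit also stands beside every ratio.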
